A study of Homo sapiens with 10 samples.

Results

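The genes described here differ in their shares of transcript isoforms between a mesenchymal and an epithelial line of human prostate cancer PC3 cells. They were chosen by measured values. In the deposited isoform table of PC3-EMT14 and PC3-Epi, the FPKM values of all isoforms of a gene were summed in each line (FPKM is fragments scaled by transcript length and by sequencing depth, so it is a level per length). Genes with a sum of at least 5 FPKM in both lines were kept, the share of each isoform in its gene sum was taken, and a gene entered the set when the share of any of its isoforms differed by at least 50 percentage points. Of 23170 gene entries, 8182 reached the floor of 5 FPKM, 3453 of these had 2 or more isoforms, and 21 entered the set, which is 0.608 percent. The differences between PC3-EMT14 and PC3-Epi given for these 21 entries are therefore a description of what selected them, and no test was made on them.

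The series holds 10 samples of 4 lines. PC3-Epi (2 samples, labelled as the epithelial control) is a luciferase-positive subpopulation of PC3 with a stable epithelial shape. PC3-EMT14 (3 samples, labelled as transformed to a mesenchymal phenotype) was isolated after PC3-Epi cells had been grown together with macrophages made from CD14+ monocytes and IL4. A lentivirus for the zinc finger transcription factor OVOL1 was put into PC3-EMT14 to give PC3-EMT14-OVOL1 (3 samples), and 1 for its relative OVOL2 to give PC3-EMT14-OVOL2 (2 samples). These 3 groups therefore all descend from the co-culture. No sample carries an empty vector, so a difference of an OVOL line cannot be told apart from one made by transduction and selection. Each deposited table holds 1 FPKM value per group, so a value has no SD, the depth behind it is unknown, and no difference below could be compared with the spread between samples.

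The same libraries were estimated again in other tables, which shows only how far a share moves between runs on the same reads. PC3-EMT14 stands in 3 of the 4 isoform tables, and the shares of the members' isoforms differed among them by at most 0.0395 percentage points. Their FPKM values had a median ratio of 0.979 (OVOL1 table) and 0.969 (OVOL2 table) to those in the PC3-Epi table, so only the scale moved. These repeats use the same reads and do not replace replicates. They also cannot show how well reads were divided among isoforms. GPR56 and OSBPL3, whose estimates were marked as failed, differed by at most 0.0105 and 0.0123 percentage points. In bulk RNA, a culture in which some cells use 1 isoform and some another cannot be told apart from a culture in which every cell uses both.

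The groups carried the genes their labels name. OVOL1 was at 0.0243 FPKM in PC3-EMT14, 11.3 in the OVOL1 line, 0.0701 in the OVOL2 line and 4.25 in PC3-Epi. OVOL2 was at 0.383, 0.562, 831 and 9.91 FPKM in the same order. CDH1, the epithelial cadherin, was at 1.00 FPKM in PC3-EMT14, 16.2 in the OVOL1 line, 39.2 in the OVOL2 line and 50.6 in PC3-Epi, and VIM, the mesenchymal intermediate filament, was at 271, 183, 76.9 and 42.5 FPKM.

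A gene yields several isoforms when transcription starts at different promoters, when exons are joined or skipped, or when the transcript ends at different sites. Epithelial and mesenchymal cells are known to differ in splicing, and the epithelial splicing regulators ESRP1 and ESRP2 are known to hold CD44 and ENAH, among others, in their epithelial forms. ESRP1 was at 0.415 FPKM in PC3-EMT14, 15.2 in the OVOL1 line, 11.7 in the OVOL2 line and 84.6 in PC3-Epi. ESRP2 was at 5.70, 9.31, 10.5 and 16.9 FPKM. The part of these 2 genes in the isoform shares was not tested. The deposited tables identify an isoform only by a running number and the locus of its whole gene, so the exons that separate the isoforms below are not given here.

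The 21 entries fall into 2 kinds. In 13, all isoforms carry 1 gene symbol and the shift lies between transcripts of the same gene. In 8, overlapping loci were joined in 1 entry under several symbols, and 7 of these hold a microRNA hairpin together with its host gene. Over all 3453 genes compared, 40 entries held a short RNA. For the 7 hairpin entries the isoform that gained or lost was mostly the hairpin itself, as described after the genes with 1 symbol. A microRNA hairpin is the folded precursor from which a mature microRNA is cut, and the seed (bases 2 to 8 of the mature strand) is the stretch that pairs with target mRNAs.

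The mature microRNAs of these hairpins are shown because the hairpins carry the largest changes in FPKM of the whole set, and to compare the seeds of the 4 hairpins with a mature sequence here. Sequences are from RefSeq, 5′ to 3′, with the seed in capitals.
hsa-miR-1909-5p: uGAGUGCCggugccugcccug
hsa-miR-1909-3p: cGCAGGGGccgggugcucaccg
hsa-miR-564: aGGCACGGugucagcaggc
hsa-miR-1292-5p: uGGGAACGgguuccggcagacgcug
hsa-miR-1292-3p: uCGCGCCCcggcucccguuc
hsa-miR-658: gGCGGAGGgaaguagguccguuggu
The 6 mature sequences, which include both arms of MIR1909 and MIR1292, had 6 different seeds. MIR632, MIR937 and MIR939, the hairpins of the other 3 entries, are described by name only.

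Among the 13 genes with 1 symbol, the isoform whose share rose most from PC3-EMT14 to PC3-Epi is called the PC3-Epi isoform, and the isoform whose share fell most the PC3-EMT14 isoform. The PC3-EMT14 isoform led in PC3-EMT14 in 13 of 13 genes, and the PC3-Epi isoform led in PC3-Epi in 12 of 13. The share of the PC3-Epi isoform had a median of 15.7% in PC3-EMT14 and 73.7% in PC3-Epi. The gene sum changed less than 2-fold between the lines in 11 of the 13, against 93.3 percent of all 3453 genes compared.

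**Figure D1:**
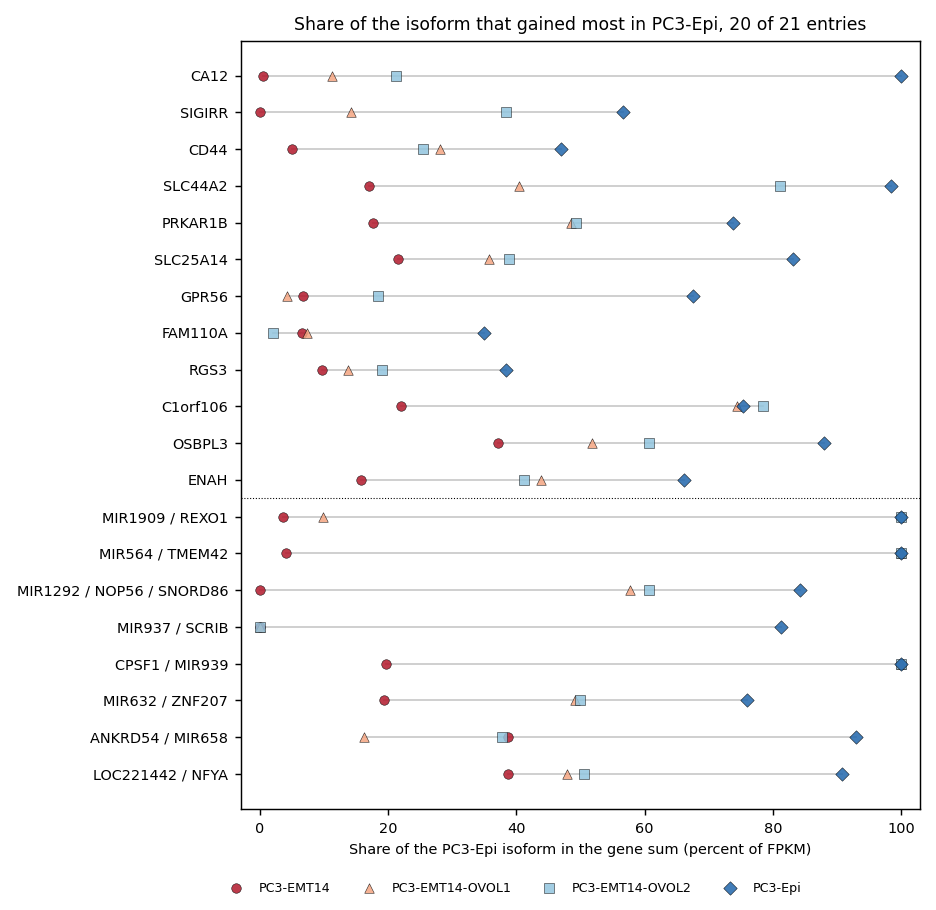
Share of the PC3-Epi isoform in the gene sum (percent of FPKM, x axis) for 20 of the 21 entries (y axis) in the 4 lines, with 1 pooled value per line and no error. Genes with 1 symbol stand above the dotted line and entries with several symbols below it. The triangles and squares of the OVOL lines lie between the circles of PC3-EMT14 and the diamonds of PC3-Epi in 9 of the 12 genes with 1 symbol that are plotted.

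CD44, ENAH and C1orf106 act at cell contacts or on the actin cytoskeleton. CD44, the cell surface receptor for hyaluronan, is well known for its standard form and for variant forms with added exons (chr11:35160417-35253949, hg19, plus strand in the GENCODE annotation). Its gene sum was alike in the 4 lines, at 43.5 FPKM in PC3-EMT14, 45.9 in the OVOL1 line, 50.6 in the OVOL2 line and 51.6 in PC3-Epi. Isoform TCONS_00005418 made up 93.9% of it in PC3-EMT14, 61.9% in the OVOL1 line, 63.9% in the OVOL2 line and 11.5% in PC3-Epi. Isoform TCONS_00005417 took 4.99%, 28.1%, 25.4% and 46.9% in the same order. Isoform TCONS_00005416 took 0.922%, 9.17%, 10.1% and 40.1%. CD44 in PC3-Epi was thus divided between a pair of isoforms that were minor in PC3-EMT14, and both OVOL lines stood between with the PC3-EMT14 isoform still in the lead. In FPKM, TCONS_00005417 was at 2.17 in PC3-EMT14 and 24.2 in PC3-Epi, and each OVOL line had about 6-fold of the PC3-EMT14 value (6.07-fold with OVOL1 and 6.11-fold with OVOL2).

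ENAH, an actin regulator of the Ena/VASP family at the tips of cell protrusions, had 2 isoforms (chr1:225674534-225840845, minus strand). TCONS_00003514 was at 2.15 FPKM in PC3-EMT14, 6.13 in the OVOL1 line, 4.82 in the OVOL2 line and 12.4 in PC3-Epi. TCONS_00003515 was at 11.5, 7.86, 6.86 and 6.36 FPKM. The share of the first therefore stood at 15.7%, 43.8%, 41.2% and 66.1%, and ENAH entered the set with the smallest difference, 50.4 percentage points. C1orf106, also known as INAVA and active at epithelial cell junctions, had the largest fold difference in its total among the genes with 1 symbol, 5.61-fold between PC3-EMT14 and PC3-Epi. Its sum was 5.45 FPKM in PC3-EMT14, 12.8 in the OVOL1 line, 18.6 in the OVOL2 line and 30.6 in PC3-Epi, and most of the increase came from TCONS_00001538 (1.20, 9.55, 14.6 and 23.0 FPKM). The other isoform, TCONS_00001537, stayed between 3.29 and 7.54 FPKM. The share of TCONS_00001538 was 22.0% in PC3-EMT14 and 74.4%, 78.4% and 75.3% in the other lines, so that both OVOL lines lay close to PC3-Epi in the share while their total level stayed below it. FAM110A, which is on none of the functional lists used here, went another way. Its isoform TCONS_00020714 held 93.4% in PC3-EMT14, 92.6% with OVOL1 and 98.0% with OVOL2 but 38.5% in PC3-Epi, where the gene sum was 17.2 FPKM against 7.95 in PC3-EMT14. The FPKM of that isoform hardly differed (7.43 and 6.64), and 2 further isoforms stood beside it in PC3-Epi, at 4.56 FPKM (listed at 0 in the other lines) and 6.03 FPKM (at most 0.531 in the other lines). FAM110A thus kept its PC3-EMT14 pattern in both OVOL lines, as did the SCRIB entry described with the hairpins.

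A further group of genes moves molecules across membranes. SLC44A2, a choline transporter-like protein, had a sum of 35.7 FPKM in PC3-EMT14, 26.9 in the OVOL1 line, 28.2 in the OVOL2 line and 67.0 in PC3-Epi (chr19:10713121-10755235, plus strand). TCONS_00016293 was at 6.08, 10.9, 22.8 and 65.9 FPKM, and TCONS_00016292 at 29.6, 16.1, 5.32 and 1.10 FPKM. The share of TCONS_00016293 was 17.0% in PC3-EMT14, 40.4% in the OVOL1 line, 81.1% in the OVOL2 line and 98.4% in PC3-Epi. The leading isoform was thus that of PC3-EMT14 with OVOL1 and that of PC3-Epi with OVOL2. SLC25A14, a carrier of the inner mitochondrial membrane, had shares of 21.6%, 35.8%, 38.9% and 83.2% for TCONS_00036730, with sums between 8.14 and 10.5 FPKM. The authors' program marked its isoforms as not tested between PC3-EMT14 and PC3-Epi. Part of the isoforms of CD44, PRKAR1B, RGS3 and FAM110A carried this mark in the same comparison. So did part of those of C1orf106 and SLC44A2, among other genes, in the comparison of OVOL1 with PC3-EMT14.

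Other genes take part in signalling. SIGIRR, an inhibitory receptor of the interleukin-1 and Toll-like receptor family, had a sum of 17.0 FPKM in PC3-EMT14, 12.0 in the OVOL1 line, 13.6 in the OVOL2 line and 15.4 in PC3-Epi (chr11:405716-417397, minus strand). TCONS_00006229 held a share of 94.0% in PC3-EMT14, 79.1% in the OVOL1 line, 45.1% in the OVOL2 line and 4.61% in PC3-Epi. TCONS_00006231 was listed at 0 in PC3-EMT14 and took 14.2%, 38.3% and 56.6% in the other lines. As in SLC44A2, the OVOL2 line lay closer to PC3-Epi than the OVOL1 line did. RGS3, which speeds up GTP hydrolysis by G proteins, spread its 10.2 FPKM in PC3-Epi over 3 isoforms with shares of 36.4%, 24.3% and 38.3%. A further isoform, TCONS_00034901, held 54.7% in PC3-EMT14, 35.2% in the OVOL1 line, 19.0% in the OVOL2 line and 1.04% in PC3-Epi. PRKAR1B, a regulatory subunit of protein kinase A, had 3 of its 6 isoforms listed at 0 in every line. Its TCONS_00032423 held 64.4% in PC3-EMT14, 18.8% with OVOL1 and 25.1% with OVOL2, and was listed at 0 in PC3-Epi. GPR56, an adhesion G protein-coupled receptor, had 8 isoforms, of which TCONS_00012563 held 6.64% in PC3-EMT14, 4.15% in the OVOL1 line, 18.5% in the OVOL2 line and 67.5% in PC3-Epi. The authors' program marked the estimate of every GPR56 isoform and of every OSBPL3 isoform as failed, and the values of these 2 genes are given with that limit.

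The last genes with 1 symbol act in metabolism and lipid handling. CA12, a carbonic anhydrase of the cell surface that hydrates carbon dioxide, showed the largest shift, 99.6 percentage points (chr15:63615730-63674075, minus strand). TCONS_00011747 was at 18.9 FPKM in PC3-EMT14, 18.2 with OVOL1 and 11.9 with OVOL2, and was listed at 0 in PC3-Epi. TCONS_00011746 was at 0.0825, 2.29, 3.22 and 12.8 FPKM. CA12 was thus nearly all of 1 isoform in PC3-EMT14 and wholly of the other in PC3-Epi, and in the OVOL lines the PC3-Epi isoform reached 11.2% and 21.2%. OSBPL3, an oxysterol-binding protein homologue that binds lipids at membrane contacts, had TCONS_00032522 at 2.32 FPKM in PC3-EMT14, 3.40 in the OVOL1 line, 3.77 in the OVOL2 line and 4.43 in PC3-Epi, where its share was 88.0%, with a sum between 5.03 and 6.57 FPKM.

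**Figure D2:**
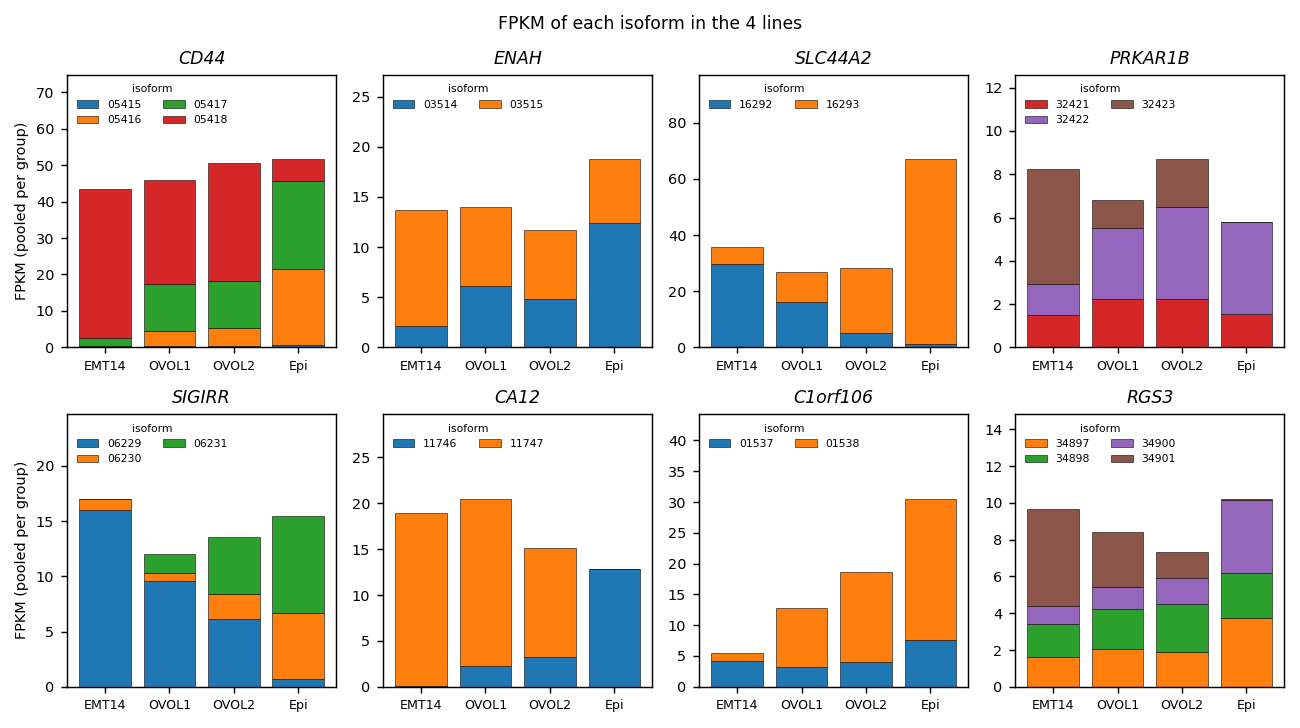
FPKM of each isoform (y axis, 1 pooled value per line, no error) stacked for 8 genes with 1 symbol in the 4 lines (x axis). Colours stand for isoforms, named by the last 5 digits of their number, and isoforms under 0.2 FPKM in every line are left out. In CD44 the bars keep a similar height while the colours change, and in C1orf106 the height rises with 1 isoform.

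NFYA, the subunit of the transcription factor NF-Y that contacts the CCAAT box, shares its entry with LOC221442, which took between 3.19% and 3.88% in every line. The shift lay within NFYA. Isoform TCONS_00028214 held 38.6% in PC3-EMT14, 47.9% in the OVOL1 line, 50.5% in the OVOL2 line and 90.7% in PC3-Epi. Its FPKM was 4.50, 4.44, 4.18 and 12.2, so the OVOL lines kept its PC3-EMT14 level, and their higher share went with a lower FPKM of the other NFYA isoform, TCONS_00028213 (6.69, 4.53, 3.79 and 0.815).

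In the 7 hairpin entries the FPKM of the host genes differed little between the lines and that of the hairpins differed much. FPKM is a level per length, so a short hairpin can reach a high FPKM from few fragments. The number of fragments behind each value is unknown. REXO1, an RNA exonuclease homologue, was at 7.40 FPKM in PC3-EMT14, 8.13 in the OVOL1 line, 8.15 in the OVOL2 line and 7.76 in PC3-Epi, while MIR1909 was at 195 FPKM in PC3-EMT14 and 75.0 with OVOL1 and was listed at 0 with OVOL2 and in PC3-Epi. CPSF1, a subunit of the complex that cleaves and polyadenylates pre-mRNA, was at 57.8, 65.5, 65.3 and 56.4 FPKM, while MIR939 was at 236 FPKM in PC3-EMT14 and was listed at 0 in the other 3 lines. MIR564 in the entry of TMEM42 (78.9 FPKM) and MIR632 in the entry of ZNF207, a zinc finger protein of the mitotic spindle (92.4 FPKM), were likewise above 0 in PC3-EMT14 only. TMEM42 itself was at 3.34, 4.09, 4.34 and 5.22 FPKM, and the 3 ZNF207 isoforms summed to 47.8, 48.4, 39.3 and 60.3 FPKM.

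The other 3 hairpins were higher in PC3-Epi. MIR1292, in the entry of NOP56 (a core protein of the particles that methylate ribosomal RNA), was listed at 0 in PC3-EMT14 and was at 184 FPKM in the OVOL1 line, 200 in the OVOL2 line and 960 in PC3-Epi, the highest value of any isoform in the set. The 2 NOP56 isoforms summed to 122, 135, 130 and 179 FPKM, and SNORD86, which shares the entry, was listed at 0 in every line. The authors' program marked at least 1 isoform of this entry as low in data in each of the 4 comparisons. MIR937, in the entry of the polarity scaffold SCRIB, was at 206 FPKM in PC3-Epi and listed at 0 in the other 3 lines, with SCRIB at 35.2, 39.3, 42.3 and 47.4 FPKM. MIR658, in the entry of ANKRD54, was at 4.67, 1.26, 3.65 and 93.4 FPKM, with ANKRD54 at 7.40, 6.53, 6.03 and 7.04 FPKM.

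**Figure D3:**
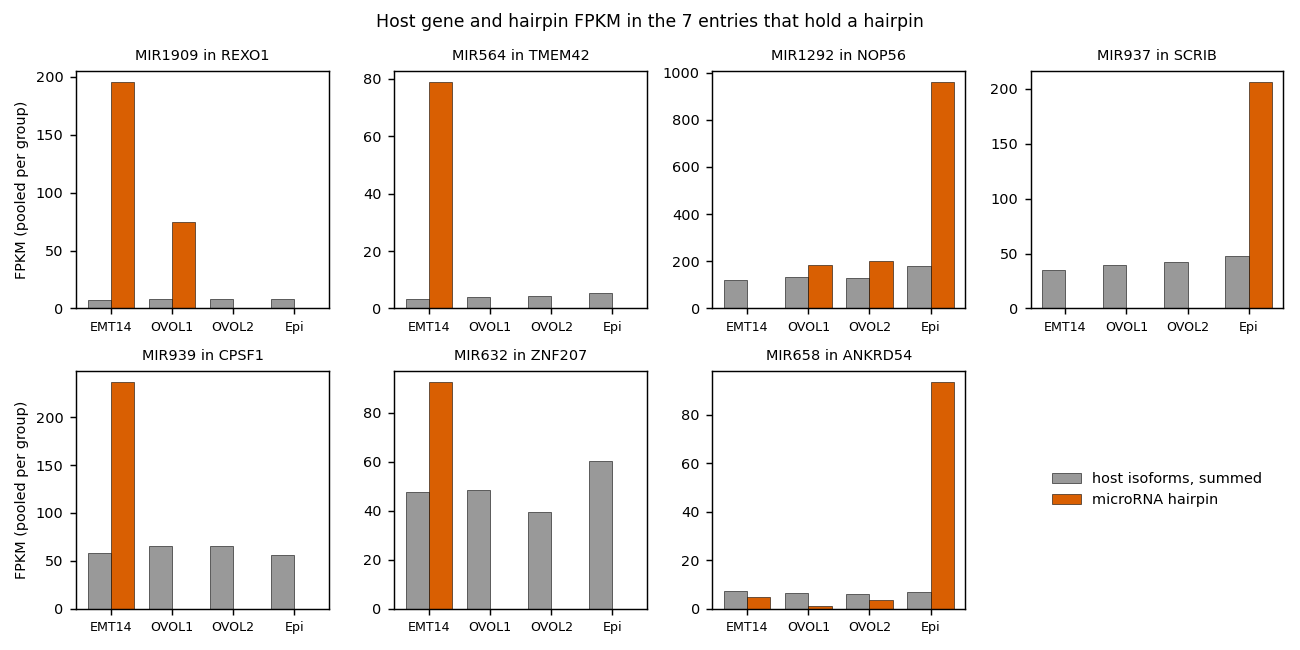
FPKM of the host gene (grey, its isoforms summed) and of the microRNA hairpin (orange) in the 7 entries that hold a hairpin, in the 4 lines (x axis), with 1 pooled value per line and no error. The grey bars differ at most 1.56-fold between PC3-EMT14 and PC3-Epi in every panel. Of the orange bars, 4 are above 0 in PC3-EMT14 and listed at 0 in PC3-Epi. The reverse holds for 2, and MIR658 is above 0 in both.

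The hairpins are short, between 66 and 100 bases, and lie on the strand of their hosts. Set against the canonical GENCODE transcript of the host on GRCh37 (the same assembly as hg19), all 7 shared bases with a host exon. MIR564 (chr3:44903380-44903473) shared 70 of its 94 bases with the first exon of TMEM42, MIR658 (chr22:38240279-38240378) shared 63 of 100 with that of ANKRD54, and MIR632 (chr17:30677128-30677221) shared 46 of 94 with that of ZNF207. These 3 hairpins also began upstream of the host transcript, by 24, 37 and 48 bases. MIR1909 (chr19:1816158-1816237), MIR937 and MIR939 shared 14, 18 and 12 bases with a coding exon, and MIR1292 (chr20:2633423-2633488) shared 1 base. A fragment of host mRNA or pre-mRNA and a fragment of the precursor cannot be told apart where they overlap, and the part of host fragments in the hairpin values was not tested. The MIR1292 hairpin, the precursor with the highest value, is printed with its mature strands in capitals. It matched the GRCh37 bases at its annotated place, as did the other 4 hairpins checked.
MIR1292 hairpin: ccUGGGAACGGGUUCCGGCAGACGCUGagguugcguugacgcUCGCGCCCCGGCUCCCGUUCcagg

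When the shares were taken over the host isoforms alone, a choice made after the values were seen, none of the 7 hairpin entries reached 50 percentage points. REXO1, TMEM42 and CPSF1 have 1 host isoform and no share to compare. The largest host shift was 20.4 percentage points in ZNF207, where TCONS_00013838 was at 27.1 FPKM in PC3-EMT14, 23.8 in the OVOL1 line, 19.6 in the OVOL2 line and 45.8 in PC3-Epi. ANKRD54, SCRIB and NOP56 had host shifts of 13.8, 12.2 and 9.43 percentage points.

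The shares of the 21 entries were then followed in both OVOL lines, each against PC3-EMT14 in its own table. The PC3-EMT14 libraries that selected the members are also the base of these differences, and the 2 comparisons share them. The direction, size and count of the differences are therefore not independent of the choice. The percents over all genes stand beside them as background, not as a test. The entry of TMEM42 fell under the floor (4.09 FPKM with OVOL1 and 4.34 with OVOL2), which left 20. With OVOL1, 4 of the 20 shifted by at least 50 percentage points, against 0.112 percent of the 3556 genes compared, a percent made up of the same 4. These were the entries of MIR939 (80.3 percentage points), MIR632 (65.9) and MIR1292 (57.7), and C1orf106 (52.4). With OVOL2, 6 of the 20 did so, against 0.228 percent of 3510 genes (8 genes, with these 6 among them). The 6 were the same 4 entries, at 80.3, 65.9, 60.7 and 56.4 percentage points, together with the entry of MIR1909 (96.4) and SLC44A2 (64.1). Of the genes with 1 symbol, 1 of 13 passed with OVOL1 and 2 of 13 with OVOL2.

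At a lower threshold of 20 percentage points, chosen after the values were seen, 6 of the 13 genes with 1 symbol shifted with OVOL1 (background 1.1 percent) and 10 of 13 with OVOL2 (background 3.02 percent). Among the 6 were CD44, SLC44A2, PRKAR1B, C1orf106 and ENAH, and OVOL2 added CA12, SIGIRR, RGS3 and OSBPL3. SLC25A14, GPR56 and FAM110A stayed below with both. The median shift of the 13 genes was 19.6 percentage points with OVOL1 and 30.0 with OVOL2, against medians of 2.10 and 2.88 over all genes compared. The PC3-EMT14 shares that helped to choose the 13 are also subtracted here. Counts and medians above those of all genes therefore follow in part from the choice. The share of the PC3-Epi isoform lay between the values of PC3-EMT14 and PC3-Epi in 12 of 13 genes with OVOL1, in 11 of 13 with OVOL2, and in 10 of 13 with both. The exceptions were GPR56 with OVOL1, and FAM110A and C1orf106 with OVOL2. Its difference from PC3-EMT14 ranged from -2.50 to 52.4 percentage points with OVOL1 and from -4.57 to 64.1 with OVOL2. The PC3-Epi isoform was the leading isoform in 4 of the 13 with OVOL1 and in 5 with OVOL2. OSBPL3, whose estimates were marked as failed, is in both counts. Over all 21 entries the PC3-Epi isoform led in 7 and 10, with the TMEM42 entry included though under the floor. In the entries of TMEM42 and CPSF1, and in that of REXO1 with OVOL2, it is the only host isoform and led where the hairpin was listed at 0. Leading isoforms and shares between the lines were not counted over all genes.

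**Figure D4:**
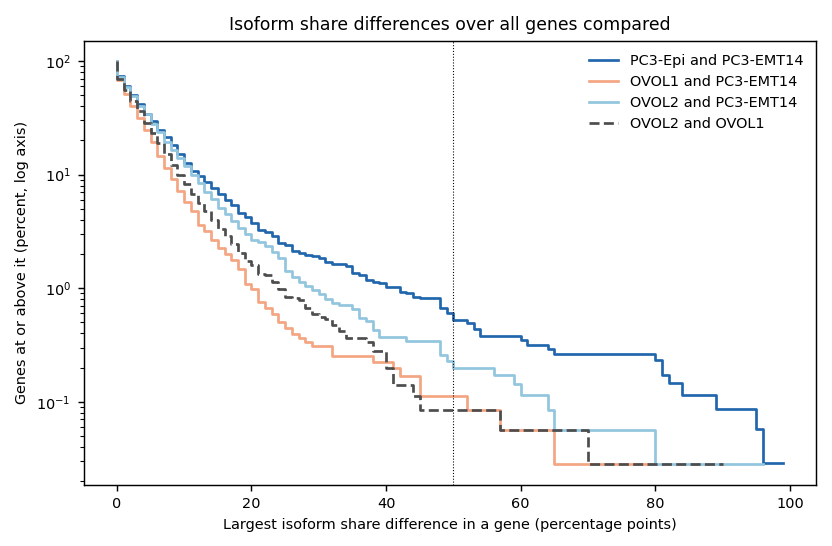
Percent of the genes compared (y axis, log scale) whose largest isoform share difference is at or above the value on the x axis (percentage points), for 4 pairs of lines. The dotted line marks the threshold of 50 percentage points, at which 0.608 percent of genes remain for PC3-Epi, 0.228 percent for OVOL2 and 0.112 percent for OVOL1 against PC3-EMT14, and 0.0844 percent between the OVOL lines.

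The table of PC3-EMT14-OVOL2 and PC3-EMT14-OVOL1 holds neither of the lines that chose the members. In it, 1 of the 20 entries at the floor, that of MIR1909, differed by at least 50 percentage points (90.2), against 0.0844 percent of 3555 genes. At 20 percentage points 4 of the 20 did so, against 1.74 percent. These were the entry of MIR1909, SLC44A2 (40.7 percentage points higher in OVOL2 for the PC3-Epi isoform), SIGIRR (34.1 for the PC3-EMT14 isoform, which was lower in OVOL2) and the entry of MIR658 (21.5). Among the 13 genes with 1 symbol, the share of the PC3-Epi isoform was higher in OVOL2 than in OVOL1 in 10 and lower in 3 (CD44, FAM110A and ENAH), and 6 of the 13 differed by less than 5 percentage points. The median of the largest shift was 7.09 percentage points in these 13 and 2.43 over all genes. With 1 pooled value per line, none of these differences could be set against the spread between samples. The members were chosen for large share differences, so they need not compare with all genes in this pair of lines either.

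Gene lists drawn up for this material give the setting. Of 56 genes known for splicing changes between epithelial and mesenchymal cells, 39 had 2 or more isoforms at the floor, 4 were members (CD44, ENAH, OSBPL3 and the SCRIB entry, whose shift was that of MIR937), and their median shift was 18.3 percentage points against 2.98 over all 3453 genes. At 20 percentage points 19 of the 39 shifted, against 4.23 percent of all genes. Of the 50 genes that the study lists for isoform changes, 38 were compared, 8 were members and 21 shifted by 20 percentage points, with a median of 21.2. Both counts include the ANKRD54 entry, whose shift was that of MIR658 (13.8 percentage points over the ANKRD54 isoforms alone). The study chose that list on these samples, so it is not independent evidence, and the same holds for the 7 genes its text names, of which 6 were compared and 2 were members (CD44 and ENAH).

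The functional groups are read against 0.608 percent of members and a median shift of 2.98 percentage points over all 3453 genes. Of 43 genes of the actin cytoskeleton, 1 was a member (ENAH) and the median shift was 2.99 percentage points. Of 36 genes of cell adhesion and junctions, 2 were members (CD44 and the SCRIB entry), with a median of 6.91. Of 46 regulators of splicing themselves, 0 were members and 2 shifted by 20 percentage points (median 4.43). Zinc finger genes gave 1 member of 55 (the ZNF207 entry, whose shift was that of MIR632). No member was found among 60 genes of small GTPases and their regulators, 60 of mitochondrial respiration and ribosomes, 34 of ribosomal proteins, 70 of ubiquitin and the proteasome, or the 2 markers of epithelial-mesenchymal transition that had several isoforms, which in groups of this size is near the share over all genes and is no result about them. Entries with a short RNA gave 7 members of 40, against 0.608 percent over all genes, and the median shift of the 40 was 0.360 percentage points, below the 2.98 of all genes.

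The threshold separates genes with nearly equal values. Just inside it stood OSBPL3 (51.0 percentage points) and ENAH (50.4). Just outside stood an entry that joins 22 symbols of the protocadherin gamma cluster (49.8, by isoform PCDHGB5), LAMA4, a laminin chain of basement membranes (49.6), and FLJ39653 (48.8).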

How the data were processed

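RNA-seq was made from 10 samples of 4 PC3-derived lines. Paired-end reads of 50 bases were aligned by the authors with TopHat (hg19 transcriptome). They then compared the lines pairwise in Cuffdiff, scaling by the upper quartile of compatible hits and correcting for multi-mapped reads and sequence bias. FPKM values were deposited as 1 pooled value per group and comparison, in 4 gene tables and 4 isoform tables of 37557 isoforms. The number of unused columns with values per sample is 0. The authors' fold changes, test statistics, p and q were left out.

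PC3-EMT14 and PC3-Epi values are from their own table and OVOL values from the table against PC3-EMT14. Isoform shares are percents of the summed FPKM of a gene entry, computed with Python 3.11.15, numpy 2.4.6 and pandas 2.3.3, and drawn with matplotlib 3.10.9. Isoform sums were within 1 percent of the deposited gene values in 100 percent of the 3453 genes compared. No test was run, since values are pooled and depth is unknown. Simulated tables with planted share shifts were checked first.

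The members, gene lists and naming rule were chosen with earlier results of these data known. The rule named every member on the isoform lists, up to 15 of the largest shifts with sums of at least 10 FPKM in both lines (12 members had such sums), the largest with each OVOL (8 and 5) and between them (5), the 5 highest sums and the 3 entries on each side of the threshold. It names 18 of the 21 members, and the other 3 (TMEM42, SLC25A14, FAM110A) are given so that all are accounted for. Of the 21, 1 enters the counts without being described. Alternatives were other floors, thresholds and measures, a pseudocount, other tables for PC3-EMT14, and leaving out entries by status, symbols or short RNAs. Hairpin places are from GENCODE 44 lifted to GRCh37, and sequences from RefSeq (GRCh38.p14).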

Additional observations from a re-analysis of the deposited data

How the results depend on the processing

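The count of 21 entries follows the floor and the threshold. With a floor of 1 FPKM 38 entries passed, of which 7 shifted with OVOL1, 10 with OVOL2 and 2 between the OVOL lines. With a floor of 10 FPKM 12 passed, of which 3 shifted with OVOL1, 4 with OVOL2 and 0 between the OVOL lines. C1orf106, the only gene with 1 symbol that passed with OVOL1, had a PC3-EMT14 sum of 5.45 FPKM and fell under that floor. At a share shift of 0.3 the counts were 66, 7, 18 and 6 in the same order, and at 0.7 they were 9, 1, 2 and 1. Without entries of several symbols they were 13, 1, 2 and 0. Without entries that hold a short RNA, and equally with the short RNAs removed from each entry (an alternative chosen after seeing the data), 14 entries were left, of which 1 shifted with OVOL1, 2 with OVOL2 and 0 between the lines, so most shifts of this size in the OVOL lines rest on hairpins. A pseudocount of 0.1 FPKM gave 18 entries, and leaving out failed or overloaded estimates gave 19. The summed share differences divided by 2, in place of the largest, gave 28. With the PC3-EMT14 shares from either OVOL table, estimated from the same reads, 21 entries were left. Under each of these last 5, the counts with OVOL1, with OVOL2 and between the lines were 4, 6 and 1 as reported. No paired analysis was possible because the deposited values are pooled over the samples of a group, and for the same reason no replicate could be left out. The unknown depth limits genes close to 5 FPKM. It also limits the hairpins of 66 to 100 bases, where a high FPKM can stand for few fragments. In both, an isoform listed at 0 can be a failed estimate.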

Other observations

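Outside the 21 entries, 3 genes shifted by at least 50 percentage points in a table with an OVOL line, and they are given here because their values were seen. S100A13, a small calcium-binding protein, had a sum of 233 FPKM in PC3-EMT14, 196 in the OVOL1 line, 187 in the OVOL2 line and 167 in PC3-Epi. Its isoform TCONS_00002962 held 15.6% in PC3-EMT14, 8.37% in the OVOL1 line, 66.0% in the OVOL2 line and 1.08% in PC3-Epi, so the OVOL2 line stood apart from the other 3 lines. CORO1B, a coronin that binds actin filaments and the Arp2/3 complex, showed the same order of lines. Its TCONS_00006860 held 42.3% in PC3-EMT14, 20.8% in the OVOL1 line, 91.0% in the OVOL2 line and 13.4% in PC3-Epi, at sums between 46.0 and 55.7 FPKM. The authors' program marked the CORO1B isoforms, and part of those of S100A13, as not tested between the OVOL lines. DNM2, the dynamin that cuts endocytic vesicles from the membrane, had TCONS_00016304 at 76.3%, 31.0%, 16.6% and 49.4%, so that both OVOL lines lay below PC3-Epi, but the authors' program marked its isoform estimates as failed. None of these differences has a replicate spread to be compared with.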
